A study of Mus musculus with 6 samples.

Results

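The genes described here encode regulators of G protein signalling (RGS proteins): Rgs18, its chromosome 1 neighbours Rgs1, Rgs2 and Rgs13, and Rgs3, Rgs10, Rgs14, Rgs16 and Rgs19. They were taken by name, as probe sets to which the array annotation gives exactly 1 symbol. Of the 9 named genes, 8 were measured, by 9 probe sets, out of 19937 genes with a 1-symbol probe set. Rgs10 was not analysed here. Rgs18, around which the others were gathered as its relatives, was chosen by its log2 signal difference in the comparison described here. The values of that comparison are therefore given as a description, with no test, and nothing rests on them; adjusted p-values beside the relatives say only on which side of the threshold they lie.

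RNA came from the mouse B-cell line 230-238 on 6 Affymetrix mouse gene arrays, 3 of cells that carried a plasmid for green fluorescent protein (GFP) and 3 of cells whose plasmid encoded GFP and FOG1. FOG1, the product of Zfpm1, is a cofactor through which GATA transcription factors act in blood cells. Both groups were cultured for 3 days, sorted for GFP fluorescence and cultured for 4 more days, so the controls share the infection, the marker protein and the sort. The labels call the samples biological replicates of a single cell line but do not say whether they were infected separately, so errors refer to the spread between these samples. SDs are those of each probe set alone. SEs and intervals are from limma, which moderates the variance of each probe set with those of all probe sets.

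RGS proteins speed up GTP hydrolysis by the alpha subunits of heterotrimeric G proteins and so shorten the signal that follows activation of a G protein-coupled receptor. In B cells the best known of these signals come from chemokine receptors, which couple to inhibitory G proteins and steer cells to and within lymphoid tissue. Rgs18 is known mainly from platelets and megakaryocytes, where its product restrains signalling through the Gi and Gq classes of alpha subunit.

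All values are log2 signals as deposited. The arrays were alike over all probe sets, with pairwise correlations of 0.9925 to 0.9960 and medians between 6.98 and 7.04. On the first principal component, FOG1 replicate 1 lay at 1.15, between the GFP arrays (-16.1 to -11.4) and FOG1 replicates 2 and 3 (17.0 and 24.3). Zfpm1 followed the labels, with values of 9.41, 9.49 and 9.43 in GFP cells and 10.21, 10.16 and 10.17 in GFP+FOG1 cells. The difference was 0.74 log2 units, and whether it comes from plasmid or endogenous Zfpm1 RNA was not tested. Of 17 measured B-cell markers, 16 had a mean signal at or above the median of all values, beside 10582 of all 19937 genes.

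Rgs18 (probe set 10358421) had signals of 5.73, 5.94 and 6.15 on the GFP arrays and of 8.81, 9.07 and 9.12 on the GFP+FOG1 arrays. Every FOG1 array lay above every GFP array, and the lowest FOG1 value exceeded the highest GFP value by 2.67 log2 units. The group means were 5.94 ± 0.21 and 9.0 ± 0.17 (SD, n = 3 each), a difference of 3.06 log2 units (SE 0.13, 95% interval 2.76 to 3.37) or 8.36-fold. The gap between groups was many times the spread within either of them. FOG1 replicate 1, the array nearest to the GFP arrays on the first principal component, had the lowest of the FOG1 values, and the difference was 3.16 without it. The GFP mean lay below the median of all values on the arrays, 7.00, and the GFP+FOG1 mean above it. Part of a signal as low as that of the GFP cells can be background, in which case the fold understates the change in RNA. More RNA per cell and more cells with Rgs18 RNA cannot be told apart in these bulk samples.

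**Figure D1:**
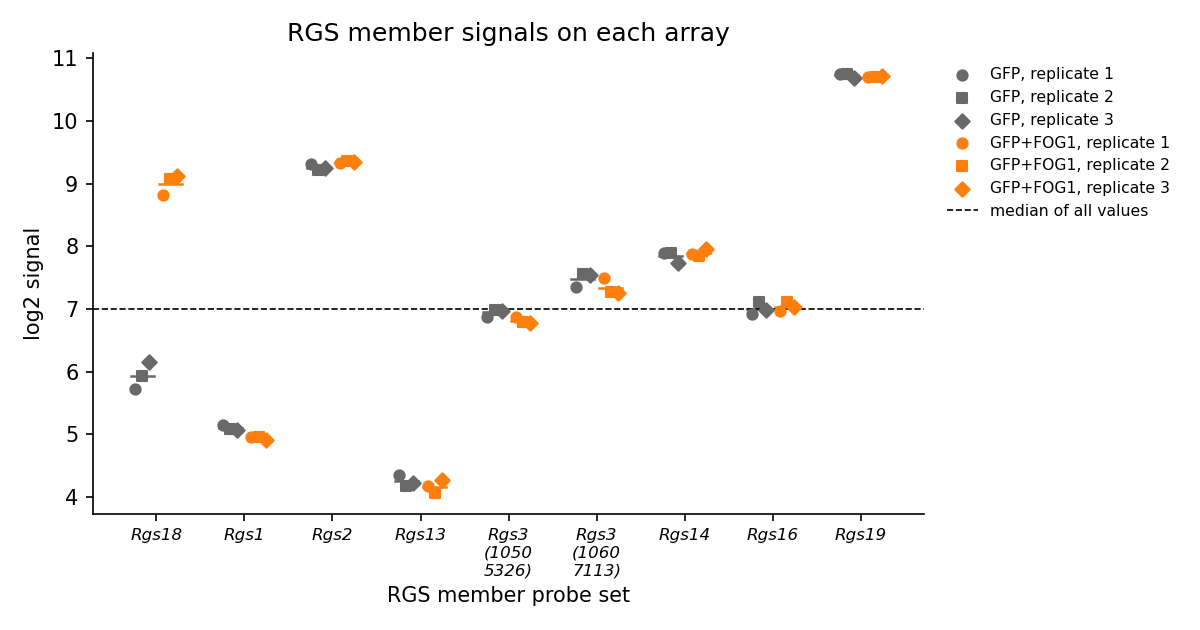
Log2 signal (vertical axis) of the 9 RGS member probe sets on each of the 6 arrays. Grey points are GFP arrays, orange points GFP+FOG1 arrays, the point shape gives the replicate, short bars are group means and the dashed line is the median of all values (7.00). Rgs18 moves from 5.73 to 6.15 in GFP cells to 8.81 to 9.12 in GFP+FOG1 cells, while the groups of every other probe set lie close together.

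With limma over all 34760 probe sets and Benjamini-Hochberg adjustment, 1 of the 9 member probe sets, that of Rgs18, passed an adjusted p of 0.05, beside 0.224% of all probe sets. Since Rgs18 was chosen with this contrast in view, nothing is read from that count. The background count was 78 probe sets, and it was between 17 and 38 when any single array was left out. Other ways of processing gave counts from 9 (replicate number as a block) to 116 (robust variance trend). The remaining 8 member probe sets had log2 changes between -0.16 and 0.08, with a median of -0.05 and limma adjusted p between 0.28 and 0.85. None of their 95% intervals reached below -0.35 or above 0.20. The group means of Rgs1, Rgs13 and 1 of the Rgs3 probe sets were both below the median of all values, where a change in RNA can be understated.

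Rgs2, Rgs13 and Rgs1 lie beside Rgs18 on chromosome 1. Rgs1 encodes a brake on chemokine-driven migration of B cells. Its signals were 5.15, 5.09 and 5.07 in GFP cells and 4.96, 4.95 and 4.90 in GFP+FOG1 cells. The FOG1 arrays all lay lower, and the log2 change was -0.16 (SE 0.046, 95% interval -0.27 to -0.05), short of the threshold over all probe sets (limma adjusted p = 0.28). Rgs2, whose product acts preferentially on the Gq class, had signals of 9.31, 9.22 and 9.25 in GFP cells and 9.32, 9.36 and 9.34 in GFP+FOG1 cells. Its groups were separated by 0.015 log2 units and their means by 0.08 (SE 0.045, limma adjusted p = 0.49). Rgs13, known from germinal centre B cells and mast cells, had signals of 4.36, 4.17 and 4.23 in GFP cells and 4.17, 4.07 and 4.26 in GFP+FOG1 cells. Its groups overlapped, and the log2 change was -0.09 (SE 0.073, limma adjusted p = 0.65).

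Rgs16, another small RGS gene of lymphocytes, lies farther along chromosome 1, with 27 measured genes between it and Rgs18. Its signals were 6.92, 7.11 and 6.98 in GFP cells and 6.97, 7.11 and 7.04 in GFP+FOG1 cells, and the groups overlapped (log2 change 0.04, SE 0.068, limma adjusted p = 0.85).

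The members on other chromosomes differed between the groups by at most 0.14 log2 units. Rgs19 encodes a protein that acts on the Gi class. Its signals were 10.75, 10.75 and 10.69 in GFP cells and 10.70, 10.70 and 10.72 in GFP+FOG1 cells, and the log2 change was -0.02 (SE 0.043, limma adjusted p = 0.84). Rgs14 encodes a scaffold that binds both Gi alpha subunits and Ras-family proteins. It had 7.89, 7.89 and 7.74 in GFP cells and 7.87, 7.85 and 7.95 in GFP+FOG1 cells, and the log2 change was 0.05 (SE 0.061, limma adjusted p = 0.75). For both genes the groups overlapped, and the difference was smaller than the SD of the more variable group.

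Rgs3 was read by a pair of probe sets. Probe set 10505326 had 6.88, 6.99 and 6.97 in GFP cells and 6.87, 6.79 and 6.77 in GFP+FOG1 cells, so that the groups were separated by 0.0056 log2 units (log2 change -0.14, SE 0.054, limma adjusted p = 0.38). Probe set 10607113 had 7.34, 7.56 and 7.54 in GFP cells and 7.49, 7.28 and 7.26 in GFP+FOG1 cells, and its groups overlapped (log2 change -0.14, SE 0.089, limma adjusted p = 0.56). The probe sets gave the same mean change, and in both FOG1 replicate 1 lay above FOG1 replicates 2 and 3.

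Counting all 9 member probe sets, groups did not overlap at 4, beside 19.6% of all probe sets. They were 2 with higher signals in GFP+FOG1 cells, beside 9.13%, and 2 with lower signals, beside 10.5%. The members were chosen in view of this contrast, and nothing is read from these shares. Within groups the members were tight, with a pooled SD of 0.027 (Rgs19) to 0.13 (Rgs3, probe set 10607113), and of 0.19 for Rgs18.

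**Figure D2:**
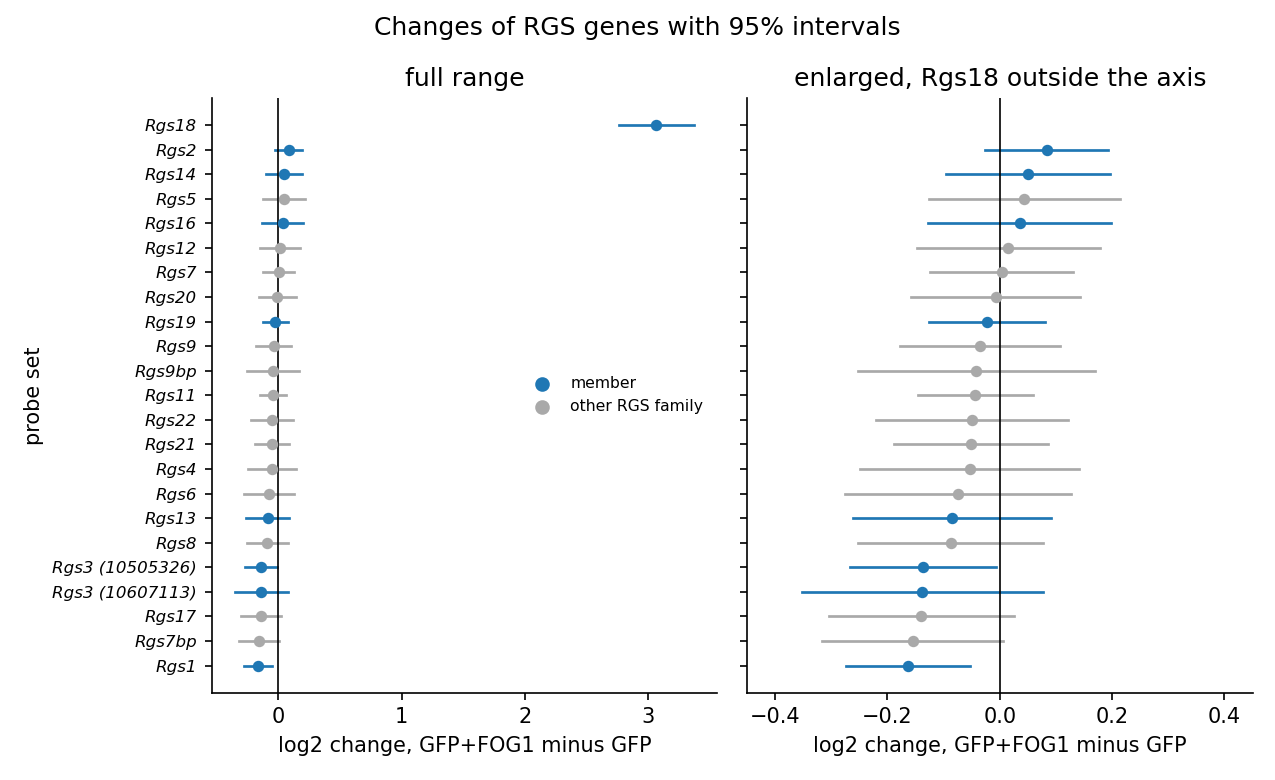
Log2 change (GFP+FOG1 minus GFP, horizontal axis) with 95% intervals from limma for the 9 member probe sets (blue) and the 14 other RGS family genes (grey), ordered by change. Rgs18 lies at 3.06, and the right panel enlarges the others, which lie between -0.16 and 0.08.

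The 14 other measured genes of the RGS family, including RGS-binding proteins, showed no change past the threshold, with 3 positive and 11 negative log2 changes between -0.16 (Rgs7bp) and 0.04 (Rgs5). Their median was -0.05, against -0.01 for all 19937 genes, of which 0.161% passed when each gene was read by its brightest 1-symbol probe set. Rgs12, which is related to Rgs14, had a log2 change of 0.02 (SE 0.068), Rgs8, known from brain, of -0.09 (SE 0.068) and Rgs9bp, an anchor of a retinal RGS protein, of -0.04 (SE 0.088). Their limma adjusted p lay between 0.62 (Rgs8) and 0.94 (Rgs12).

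Among measured genes in the order of mouse assembly GRCm38.p6, Rgs21 comes directly before Rgs18, preceded by Rgs1, Rgs13 and Rgs2; of the 8 annotated genes between Rgs2 and Rgs18, 3 were measured. Rgs21, known from taste cells, differed by -0.05 log2 units (SE 0.057, limma adjusted p = 0.73). On the far side the first measured genes were Brinp3, a gene known from neurons, Pla2g4a, which encodes the phospholipase that releases arachidonic acid, and Ptgs2, which encodes the inducible cyclooxygenase. Brinp3 differed by -0.22 log2 units (SE 0.11, limma adjusted p = 0.47), Pla2g4a by -0.09 (SE 0.11, adjusted p = 0.77) and Ptgs2 by -0.31 (SE 0.23, adjusted p = 0.60). None of the 20 nearest measured genes, 10 on either side, passed the threshold, and their log2 changes lay between -0.31 (Ptgs2) and 0.28 (Glrx2). Beside Rgs16, the measured neighbour Rgs8 had the log2 change of -0.09 given above.

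**Figure D3:**
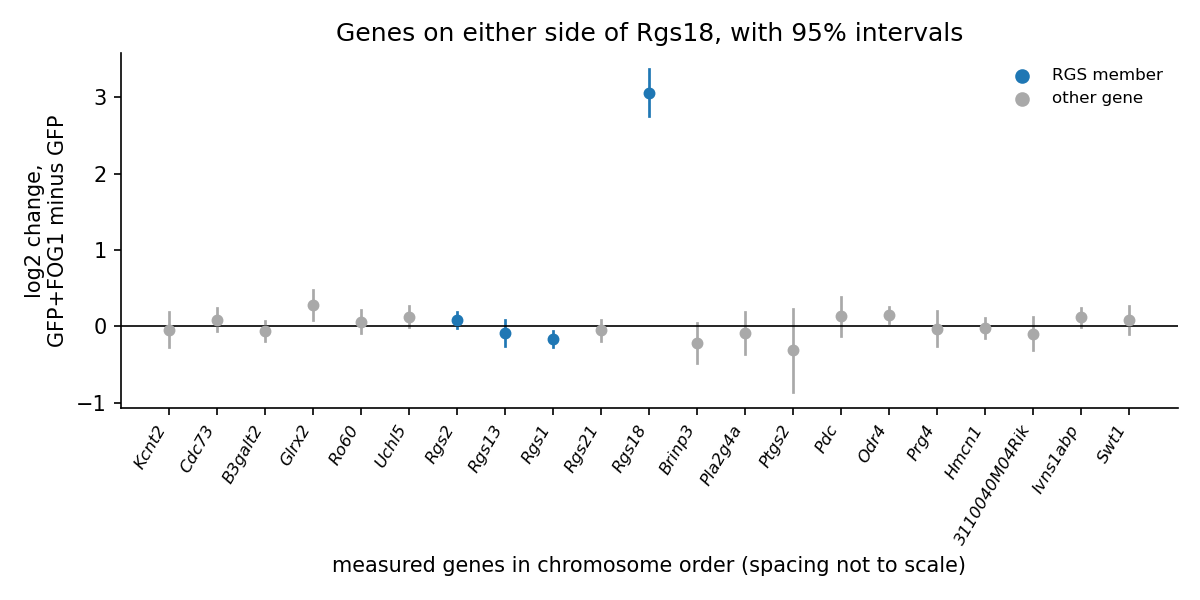
Log2 change (GFP+FOG1 minus GFP, vertical axis) with 95% intervals for Rgs18 and the 10 measured genes on either side of it in chromosome order, with spacing not to scale. RGS members are blue and other genes grey. Rgs18 stands at 3.06 and its 20 neighbours lie between -0.31 and 0.28.

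The proteins on which RGS proteins act were measured alongside. None of the 15 measured G protein alpha subunit genes passed (7 positive, 8 negative, median log2 change -0.01). Gnai2, which encodes the main inhibitory alpha subunit of lymphocytes, had 12.15 ± 0.01 in GFP and 12.13 ± 0.01 in GFP+FOG1 cells (SD, n = 3). Gna13 and Gna12, which encode a further class of alpha subunit, had log2 changes of 0.0018 (SE 0.045) and -0.07 (SE 0.049). None of the 17 beta and gamma subunit genes passed (9 positive, 8 negative, median 0.01), with Gnb1 at 0.06, Gnb2 at -0.02 and Gng12 at -0.10.

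Upstream of the G proteins, 31 G protein-coupled receptor genes of lymphocytes were measured and none passed, with 9 positive and 22 negative log2 changes and a median of -0.06. Of these 31 genes, 10 had an unadjusted p under 0.05. Among the 10, Cxcr3 rose (log2 change 0.15) and the others fell, Gpr183 the most (-0.29). The summed linear signal of the list was lower on every FOG1 array (13212 to 13538, against 13654 to 14398 on the GFP arrays). The sum was not taken without any of its genes. The receptor genes named next, the brightest of the list, are not among the 10. The chemokine receptor gene Cxcr4, which serves homing to bone marrow, had a log2 change of -0.01 (SE 0.052). Ccr7, the receptor for lymph node chemokines, had -0.10 (SE 0.050), and Gpr171 had 0.03 (SE 0.043). Downstream, none of 28 effector and regulator genes passed (12 positive, 16 negative, median -0.02), with the small GTPase gene Rhoa at 0.01, the protein kinase A subunit gene Prkacb at -0.03 and the phosphoinositide 3-kinase gene Pik3cg at 0.10. Of 14 genes for other proteins with an RGS-homology domain, none passed (5 positive, 9 negative, median -0.03), with the guanine nucleotide exchange factor gene Arhgef1 at 0.05, the receptor kinase gene Grk6 at -0.02 and the Wnt scaffold gene Axin1 at -0.11. Over these lists and the other RGS genes together, 0 of 119 measured genes passed over all probe sets in limma, beside 0.161% of all 19937 genes. With a share that low, nothing is read from the lists without a passing gene. Of the 119, 16 had an unadjusted p under 0.05, where 2199 of all 19937 genes did, and 10 of the 16 were receptor genes.

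**Figure D4:**
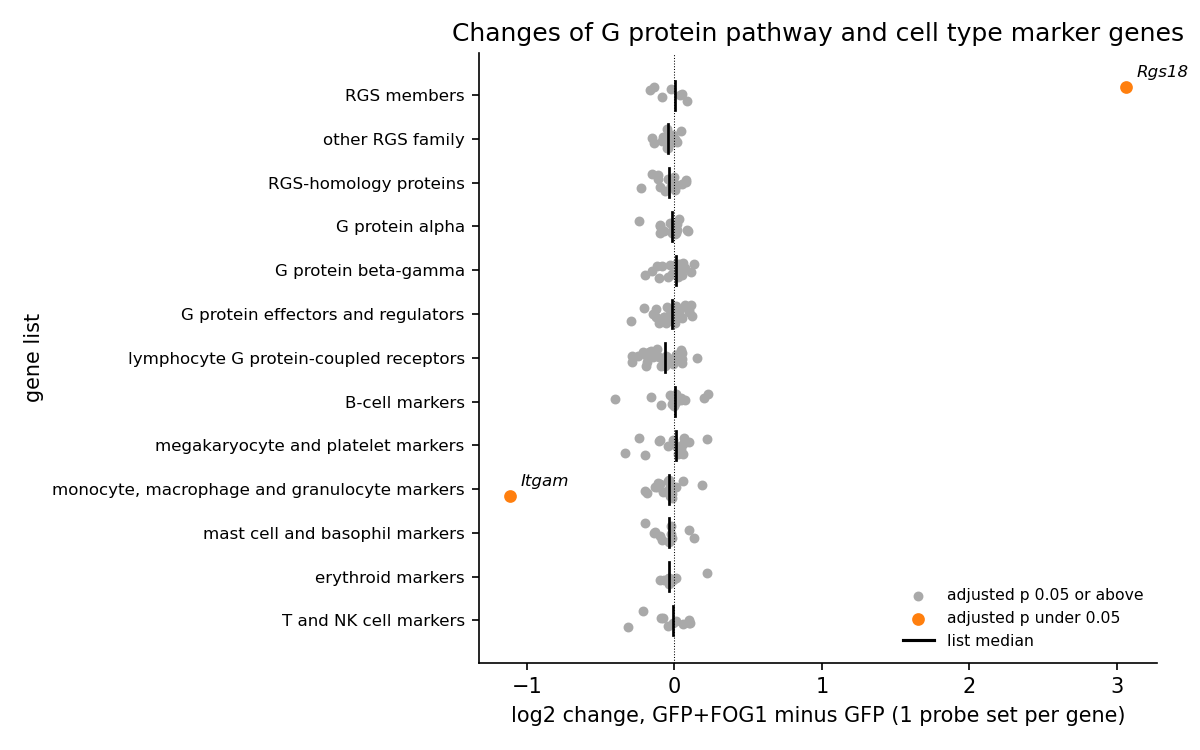
Log2 change (GFP+FOG1 minus GFP, horizontal axis) of every measured gene of each list, 1 probe set per gene. Orange points passed a limma adjusted p of 0.05 over all probe sets, grey points did not, and black bars are list medians. Rgs18 (3.06) and Itgam (-1.11) are the genes that passed.

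Because Rgs18 is known from platelets, megakaryocytes and myeloid cells, markers of those cells were set beside it. None of 15 measured megakaryocyte and platelet markers passed (8 positive, 7 negative, median log2 change 0.01), beside 0.161% of all genes. An unadjusted p under 0.05 was found for 3 of them, beside 2199 of all 19937 genes. Of these 3, Itga2b rose by 0.22 log2 units. P2rx1 and Gata1 fell, with log2 changes of -0.24 and -0.20 (limma adjusted p = 0.22 and 0.32). The platelet chemokine gene Pf4 had a mean signal of 4.87 in GFP and 4.92 in GFP+FOG1 cells, and the integrin gene Itga2b of 7.07 and 7.30 (limma adjusted p = 0.29). Of those read by the rule for naming, Thbs1 had a log2 change of -0.33 (SE 0.35), Itgb3 of -0.10 and Treml1 of 0.03. The summed linear signal of the list overlapped, running from 2296 to 2577 on the GFP arrays and from 1980 to 2701 on the GFP+FOG1 arrays. Thbs1 had the highest mean signal of the list, at 9.78 (SD 0.17) in GFP and 9.44 (SD 0.75) in GFP+FOG1 cells. It therefore weighs most in these sums, which were not taken without it. Nothing is read from their overlap about the other markers.

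Of 20 monocyte, macrophage and granulocyte markers, 3 had positive and 17 negative log2 changes (median -0.04), and 1, Itgam, passed, beside 0.161% of all genes. An unadjusted p under 0.05 was found for 4 of the 20, beside 2199 of all 19937 genes. Itgam, which encodes the alpha M integrin chain, fell by 1.11 log2 units (SE 0.077, limma adjusted p = 0.0075), opposite in direction to Rgs18. It missed the threshold without GFP replicate 1, GFP replicate 3 or FOG1 replicate 2, with limma adjusted p of 0.058, 0.066 and 0.054. Cd68 and Cebpa had log2 changes of -0.12 and -0.13. The summed signal of this list ran from 2226 to 2389 in GFP and from 2050 to 2088 in GFP+FOG1 cells, lower on every FOG1 array. Without Itgam the sums of the other 19 markers overlapped, at 1946 to 2120 and 1931 to 1970.

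None of 11 mast cell and basophil markers passed (2 positive, 9 negative, median -0.04), with summed signals of 698 to 724 in GFP and 687 to 713 in GFP+FOG1 cells. The same held for 8 erythroid markers (2 positive, 6 negative, median -0.04), with sums of 2716 to 2784 and 2939 to 3247, higher on every FOG1 array. Among them the transferrin receptor gene Tfrc differed by 0.22 log2 units (limma adjusted p = 0.25). Without it the sums were 548 to 580 and 519 to 559. It held too for 11 T and NK cell markers (5 positive, 6 negative, median -0.01), with sums of 830 to 870 and 778 to 838. None of the 17 measured B-cell markers passed (9 positive, 8 negative, median 0.0019), beside 0.161% of all genes. An unadjusted p under 0.05 was found for 4 of the 17, beside 2199 of all 19937 genes. It was found for 1 mast cell and basophil, 1 erythroid and 2 T and NK cell markers. The summed signal of the B-cell markers was lower on every FOG1 array, at 59831 to 62513 against 63261 to 64354 in GFP cells. Cd79a, whose product transmits signals from the B-cell receptor, had mean signals of 13.09 and 12.69 (log2 change -0.41, limma adjusted p = 0.088). Its partner Cd79b had 13.04 and 12.88. Of the 4 B-cell markers with an unadjusted p under 0.05, Cd79a and Cd79b fell. The others, Il7r and Rag2, rose by 0.20 and 0.23 log2 units (limma adjusted p = 0.21 and 0.33). Without Cd79a the sums overlapped, at 54587 to 55613 in GFP and 53679 to 55878 in GFP+FOG1 cells. The transcription factor gene Pax5 had 12.14 and 12.15, and the surrogate light chain gene Igll1 had 13.08 in both groups. The arrays give no zero level, so no marker can be called absent, and the part of such cells in the Rgs18 signal was not tested. The GATA factor genes themselves had log2 changes of -0.20 (Gata1), -0.10 (Gata2) and -0.15 (Gata3), and none passed (limma adjusted p 0.32 to 0.53).

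The genes whose pattern over the 6 arrays was most like that of Rgs18 were sought among 65 other probe sets with 1 symbol, a group mean at or above 7.00 and a log2 change of at least 0.5 in size. The likeness is Pearson's r over 6 arrays that fall into the compared groups, so it mostly restates the group difference and is given as a description. Mrpl20, of the mitochondrial ribosome, had r = 0.996, Zfpm1 0.992, the SLAM family receptor gene Slamf9 0.988, and Prelid2, of the PRELI-domain family, and the cohesin acetyltransferase gene Esco1 both 0.985. The changes of these genes were smaller than that of Rgs18, from 0.51 log2 units (Mrpl20) to 1.24 (Prelid2). The most opposite patterns were those of the repressor gene Zhx2 (r = -0.997), the sialyltransferase gene St6galnac2 (-0.996), the phosphodiesterase gene Gdpd3 (-0.994), BC018473 (-0.992) and the SLAM family receptor gene Cd244a (-0.990). Their log2 changes lay between -3.70 (BC018473) and -0.66 (Cd244a). No RGS member other than Rgs18 was among the probe sets compared, since none had a change of 0.5.

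**Figure D5:**
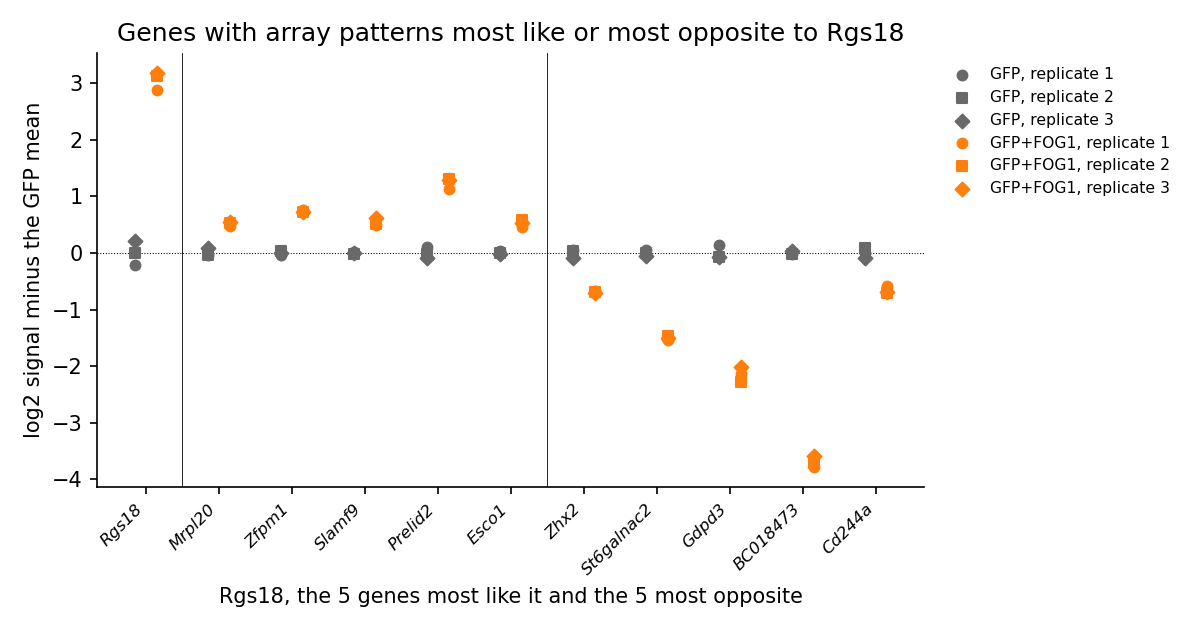
Log2 signal minus the gene's mean over the GFP arrays (vertical axis) on each array for Rgs18, the 5 genes with the most similar pattern and the 5 with the most opposite pattern. Grey points are GFP and orange points GFP+FOG1 arrays, and the shape gives the replicate. Within a group the points of a gene lie close together, and the step between groups is 3.06 for Rgs18, 0.51 to 1.24 for the similar genes and -3.70 to -0.66 for the opposite ones.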

How the data were processed

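The deposited values are log2 signals, 1 per probe set and array for 34760 probe sets. The log2 scale was read from the values (3.12 to 14.07). Only the affy package, without a version, appears in the submitters' processing notes. How background, normalization and probe summary were handled is not given in the sources used here. A change is read relative to the rest of its array. Per the labels' protocols, 100 ng of total RNA was amplified with a whole-transcript kit, without DNase treatment.

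Names came from the platform annotation, with symbols checked through Entrez identifiers against RefSeq genes of GRCm38.p6 (0 changed). Of the probe sets, 21640 had 1 symbol, 1321 several and 11799 none in the table used here. Gene order came from the same RefSeq table.

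The comparison used lmFit and eBayes of limma 3.58.1, without a block, in R 4.3.3, with Benjamini-Hochberg adjustment over all probe sets, no filter and a threshold of 0.05. The fit was also run on simulated data, and nothing is read from that about the calls made here. An exact permutation test of 3 against 3 arrays cannot go below p = 0.1 and was not used. Members and lists were chosen with earlier results of these data known. Named genes are every member, Zfpm1, the 3 brightest genes of each list and any list gene past the threshold. The rule adds the 3 measured genes on either side of Rgs18, and the 5 genes most like and most opposite to Rgs18. It also adds direct neighbours of chromosome 1 members, but only those between Rgs2 and Rgs16. Cd79a, Pax5, Pf4, Itga2b, the GATA genes, and Rgs7bp, Rgs5 and Glrx2, which are ends of ranges, were named outside that rule. List sums without Itgam, Tfrc or Cd79a were added after the values were seen. P2rx1, Il7r, Rag2, Cxcr3 and Gpr183 were also named then, and they are left out of the counts of named genes over the alternatives. Alternatives were quantile normalization, median centring, the replicate number as a block, no dim probe sets, a test of 1-symbol probe sets alone, a robust variance trend, array weights, leaving out each array, and averaging a gene's probe sets. The number of arrays limits the precision. Figures were drawn with matplotlib 3.10.9.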

Additional observations from a re-analysis of the deposited data

How the results depend on the processing

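The log2 change of Rgs18, the value it was chosen by, lay between 2.96 and 3.17 in the 14 alternatives run. The number of member probe sets past the threshold was 1 in each of the 13 that keep probe sets apart, and nothing is read from it. Log2 changes of the other member probe sets lay between -0.21 (Rgs3, probe set 10607113) and 0.11 (Rgs2), and none passed. The sign turned for Rgs16 under 2 alternatives and for Rgs19 under 1. Leaving out dim probe sets removes Rgs1, Rgs13 and 1 Rgs3 probe set, so it gives no value for them. The count of 78 probe sets was 9 with the replicate block and 17 to 38 without 1 array. It was 94 without dim probe sets, 102 with only 1-symbol probe sets and 116 with the robust variance trend. Whether fewer samples or the array left out account for the lower counts without 1 array was not tested. The labels state no block, and over all probe sets equal replicate numbers did not deviate together (correlations -0.07, 0.01 and -0.04, 0 of 3 best matched). They were not taken as pairs. For Rgs18 itself the values rose with replicate number in both groups, and its SE was 0.058 with the block against 0.13 without. Of 11 other named genes that passed, 8, Zfpm1 and Itgam among them, missed the threshold with the block, 6 without some array, and 0 turned direction. Of the 48 others, 16 changed sign under some alternative and 1, Cd79a, became called. The myeloid marker count of 1 was 0 with the block and 0 to 1 without 1 array. The B-cell marker count of 0 was 1 without dim probe sets, 1 with only 1-symbol probe sets and 1 with the variance trend (Cd79a, log2 change -0.41, limma adjusted p 0.043, 0.036 and 0.027). The cause was not tested. Signal over background could not be set, which limits Rgs1, Rgs13 and the GFP level of Rgs18.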
